A study of Mus musculus with 12 samples.

Results

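The 8 genes of early T-cell receptor assembly were followed here: Ptcra, Cd3d, Cd3e, Cd3g, Cd247, Rag1, Rag2 and Dntt. They were chosen by gene symbol, as all probe sets that the array annotation assigns to 1 of these genes and no other. This gave 13 of 34945 such probe sets, or 8 of 18193 genes. Cd247 had 4 probe sets, Dntt had 3 and every other gene had 1. Where a gene had several, the probe set with the highest mean over all arrays stood for it. All 8 genes passed the filter on low values and were among the 15420 genes tested.

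The values came from 12 arrays of mouse cells, 3 in each of 4 groups. Leukaemia cells were GFP+ bone marrow cells of recipient mice with Notch1-driven T-cell acute lymphoblastic leukaemia (T-ALL), either MBD2 wild type (MBD2+/+) or with MBD2 deletion (MBD2-/-). They were sorted once GFP+ cells exceeded 50% of the white blood cells. The normal cells were CD4+CD8+ double positive (DP) thymocytes sorted from steady-state mice of the same 2 genotypes. No group had a drug treatment in the labels. All leukaemias share the Notch1 driver and the passage through a recipient, so the step from thymocyte to leukaemia also changes the organ, the transplant and the marker used for sorting. The sources used here do not give mouse strain, age or sex, the form of Notch1 or its vector, or whether leukaemias of a group came from separate donors. The labels call the arrays separate samples without naming animals or litters, so p-values reflect only how far these samples spread, which may be technical. In RNA from bulk cells, fewer cells of a type and less RNA per cell cannot be told apart.

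A developing T cell first cuts and joins gene segments at the Tcrb locus and then at the Tcra locus. RAG1 and RAG2 form the recombinase that cuts the DNA, and terminal deoxynucleotidyl transferase (TdT), the product of Dntt, adds untemplated nucleotides at the joints. Before an alpha chain exists, the new beta chain pairs with the invariant pre-T alpha chain encoded by Ptcra. This pre-TCR signals through the CD3 gamma, delta and epsilon chains and the zeta chain of Cd247, whose cytoplasmic motifs (ITAMs) are phosphorylated by LCK and then bind SYK or ZAP70. Ptcra is a known transcriptional target of Notch signalling, and its expression normally declines after the DP stage begins. MBD2 is a protein that binds methylated CpG sites.

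The genotype labels were checked first. Mbd2 intensity, the array signal on a linear scale, was 742 to 957 in wild-type leukaemias and 41.4 to 66.0 in knockout leukaemias (log2 difference −3.58, SE 0.17, limma adjusted p = 3.16e-05). In thymocytes it was 993 to 1372 with MBD2 and 64.4 to 84.3 without it (−3.70, SE 0.16, limma adjusted p = 0.000718). Spike-in poly-A control transcripts gave signal on 5 arrays (wild-type leukaemias 1 and 2, knockout leukaemia 1, wild-type thymocytes 1 and 2) and none on the other 7. The Gapdh 3' to 5' signal ratio, a measure of RNA integrity and labelling length, was 0.964 to 1.14 on the arrays with signal and 1.12 to 3.68 on those without. The highest control probe set with no target read 35.3, and intensities at or below that value cannot be told from background. Summed over 5 DP thymocyte marker genes (Cd4, Cd8a, Cd8b1, Ccr9 and Cd1d1), intensity was 20545 to 30141 in the thymocytes, 7986 to 10308 in wild-type leukaemias and 697 to 1088 in knockout leukaemias.

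Loss of MBD2 went with a lower Ptcra and a higher Dntt in leukaemia cells, while Cd3d, Cd3e, Cd3g and Cd247 did not pass the test in the fit without a block. At a limma adjusted p under 0.05 over all genes tested, 1 of the 8 genes was higher in knockout than in wild-type leukaemias (Dntt), 2 were lower (Ptcra and Rag1) and 5 did not pass. Over all genes, 16.2% passed, 9.19% as higher and 6.98% as lower. With replicate numbers as a block 4 of the 8 genes passed, Cd247 being the added one (limma adjusted p = 0.0244). The share of all genes passing under that block is not given here, so this count has no background beside it. The groups did not overlap for 3 of the 8 genes, against 33.4% of all genes. The median log2 difference of the 8 genes was 0.14, beside −0.06 over all genes.

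In thymocytes 0 of the 8 genes passed by limma between genotypes, and 0 had an unadjusted p under 0.05. Over all genes 0.0324% passed and 4.68% had an unadjusted p under 0.05. Ptcra was the 1 gene of 8 whose thymocyte groups did not overlap, against 8.64% of all genes.

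Between cell types the differences were larger. In wild-type leukaemias against wild-type thymocytes, 1 gene was higher (Ptcra), 5 were lower (Cd3e, Cd247, Rag1, Rag2 and Dntt) and 2 did not pass. Over all genes, 33.9% passed, 19.7% as higher and 14.2% as lower. With replicate numbers as a block all 8 genes passed, since Cd3d (limma adjusted p = 0.00591) and Cd3g (0.0038) were also lower. For this block too, the share of all genes passing is not given. In knockout leukaemias against knockout thymocytes, 7 genes were lower and Cd3d did not pass. There 29.4% of all genes passed, 18.5% as higher and 11% as lower. Groups did not overlap for 7 of 8 genes in each of these comparisons, against 45.7% and 42.1% of all genes. The members' medians were −1.53 and −1.54, beside 0.06 and 0.01 over all genes. Each of these comparisons shares arrays with both genotype comparisons, so the values are set side by side and are not independent.

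**Figure D1:**
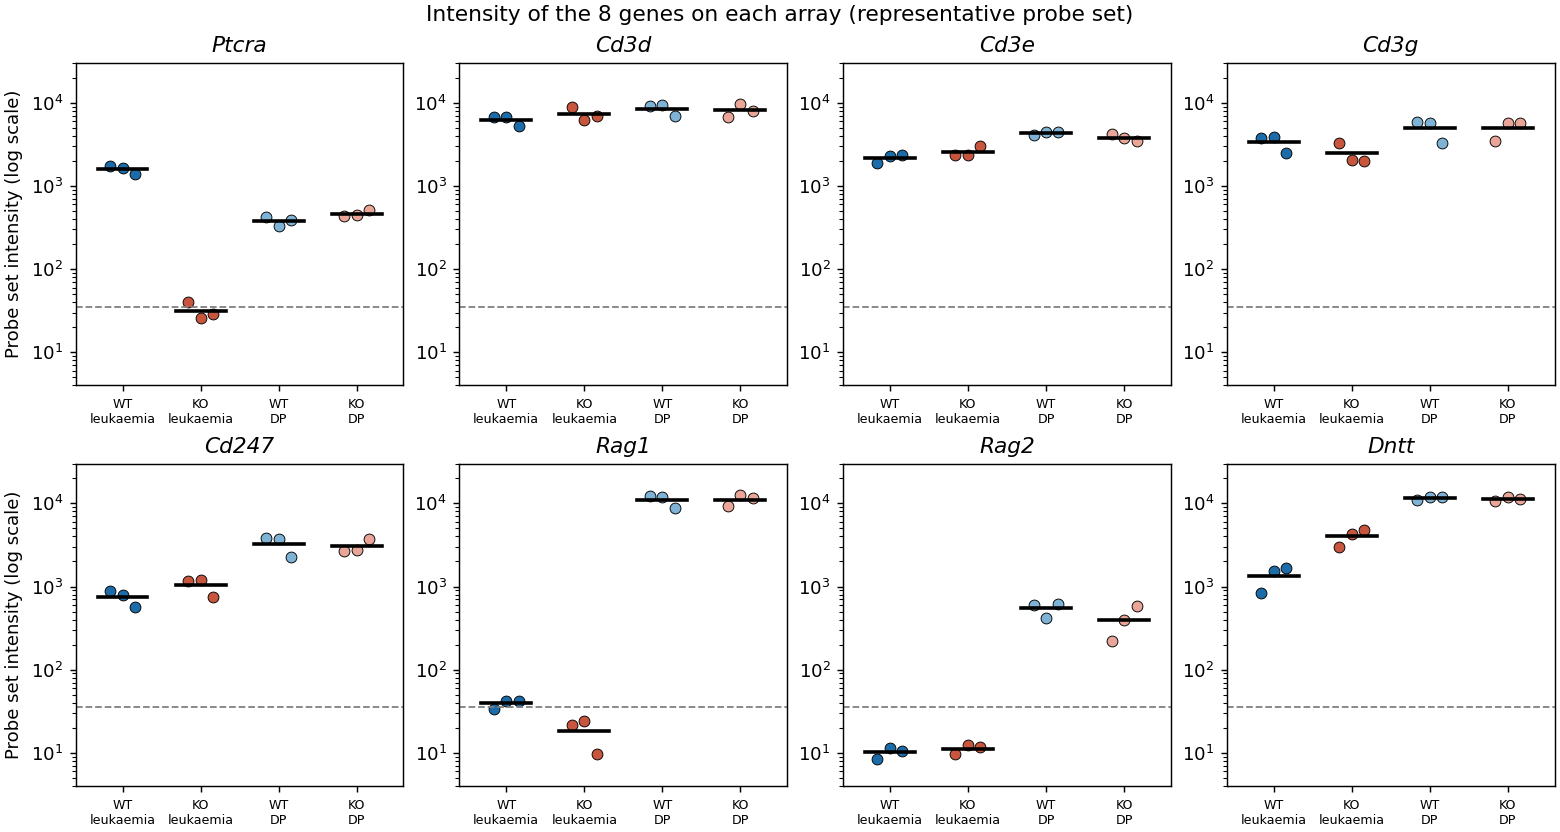
Intensity (linear values on a log10 axis) of the representative probe set of each of the 8 genes on the 12 arrays, by group, with each array as a point and the group mean as a bar; the dashed line is the background of 35.3. Ptcra lies at 1380 to 1737 in wild-type and 25.7 to 40.7 in knockout leukaemias, and Rag1 and Rag2 lie near or below the line in both leukaemia groups and above it in thymocytes.

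The promoter windows of Ptcra, Rag1, Rag2 and Dntt are printed because these genes carry the largest differences. They span 250 bases before and 50 bases after the start site, on the gene's own strand, from RefSeq on mouse build GRCm38.p6. All 8 genes matched this table. Capitals mark 3 motifs searched on both strands, without any claim that they are bound: CANNTG (the E-box of E proteins), TGGGAA (the core read by RBPJ, the DNA-binding partner of Notch) and TGTGGT (the core read by RUNX factors). Where marked motifs touch or overlap, as CATCTG and TGTGGT do once in Rag1, they appear as 1 run of capitals.
Ptcra, chr17:46763663-46763962, minus strand: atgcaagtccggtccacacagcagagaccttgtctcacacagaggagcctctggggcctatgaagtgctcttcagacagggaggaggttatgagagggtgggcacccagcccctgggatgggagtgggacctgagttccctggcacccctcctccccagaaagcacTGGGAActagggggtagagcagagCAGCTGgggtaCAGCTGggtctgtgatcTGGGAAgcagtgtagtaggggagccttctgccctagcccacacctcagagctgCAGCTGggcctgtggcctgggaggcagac
Rag1, chr2:101649483-101649782, minus strand: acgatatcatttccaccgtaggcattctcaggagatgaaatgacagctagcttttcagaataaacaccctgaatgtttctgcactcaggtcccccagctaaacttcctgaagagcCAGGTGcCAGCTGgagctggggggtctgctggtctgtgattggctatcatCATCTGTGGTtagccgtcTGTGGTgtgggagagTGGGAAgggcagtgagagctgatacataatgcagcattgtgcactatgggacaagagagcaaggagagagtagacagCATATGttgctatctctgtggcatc
Rag2, chr2:101624462-101624761, plus strand: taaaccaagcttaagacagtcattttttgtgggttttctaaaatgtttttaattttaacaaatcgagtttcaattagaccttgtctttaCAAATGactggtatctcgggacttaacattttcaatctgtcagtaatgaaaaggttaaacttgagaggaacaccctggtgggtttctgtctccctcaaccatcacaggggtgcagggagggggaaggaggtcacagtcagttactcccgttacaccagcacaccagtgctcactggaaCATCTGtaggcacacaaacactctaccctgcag
Dntt, chr19:41029025-41029324, plus strand: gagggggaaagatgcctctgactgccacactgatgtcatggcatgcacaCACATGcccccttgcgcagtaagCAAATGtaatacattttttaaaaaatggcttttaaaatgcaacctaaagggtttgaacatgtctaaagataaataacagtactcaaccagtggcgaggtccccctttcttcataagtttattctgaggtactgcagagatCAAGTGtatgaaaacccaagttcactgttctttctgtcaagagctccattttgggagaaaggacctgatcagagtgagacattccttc

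The Ptcra window holds 3 E-boxes, all CAGCTG, at 60 and 49 bases before and 21 bases after the start. It also holds TGGGAA 2 times, starting 84 and 32 bases before it. The Rag1 window has 4 E-boxes, 1 TGGGAA and 2 TGTGGT, while the neighbouring Rag2 has 2 E-boxes and neither other motif. The Dntt window has 3 E-boxes and neither other motif. Among the windows not printed, Cd3g has 4 E-boxes and 1 TGGGAA, Cd3e 2 and 1, Cd247 2 and 0, and Cd3d 1 and 0. Of 32851 promoter windows of this length, 72.3% hold CANNTG, 25.6% hold TGGGAA and 16.8% hold TGTGGT. CG dinucleotides, the sites where DNA methylation is mostly found, numbered 1 in Ptcra, 1 in Cd3d, 2 in Dntt, 3 each in Rag1, Rag2 and Cd247, 4 in Cd3g and 8 in Cd3e, with a median of 7 over all windows. Thus 7 of the 8 genes had fewer than the median, but the share of all windows with as few is not given here, so this is not read as a trait of these genes. DNA methylation was not measured in these samples.

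Ptcra (1421760_at), the gene of the pre-T alpha chain, was highest in wild-type leukaemias and lowest in knockout leukaemias. Its intensity was 1737, 1633 and 1380 in the wild-type leukaemias and 40.7, 25.7 and 28.5 in the knockout leukaemias. It was 421, 333 and 389 in wild-type thymocytes and 429, 445 and 519 in knockout thymocytes. Every group stood apart from the next, with wild-type leukaemias highest, then knockout thymocytes, wild-type thymocytes and, at background on 2 of 3 arrays, knockout leukaemias.

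Between leukaemia genotypes Ptcra fell by 5.08 on the log2 scale (95% interval −5.44 to −4.71, SE 0.15, limma adjusted p = 6.72e-06). Against the background this is at least 42.6-fold lower without MBD2. On the arrays with poly-A signal alone (wild-type leukaemias 1 and 2, knockout leukaemia 1) the difference was −4.91. On those without it (wild-type leukaemia 3, knockout leukaemias 2 and 3) it was −5.02. Neither split has replicates in both genotypes. Ptcra was 4.03-fold higher in wild-type leukaemias than in wild-type thymocytes (log2 2.01, SE 0.13, limma adjusted p = 7.22e-05). In the knockout the order was opposite, and leukaemias lay at least 12.5-fold below thymocytes (log2 −3.34, SE 0.15, limma adjusted p = 1.01e-05). Between thymocyte genotypes the log2 difference was 0.28 (95% interval −0.02 to 0.58, limma adjusted p = 0.982). The genotype effect in leukaemia minus that in thymocytes was −5.35 (SE 0.20, limma adjusted p = 2.98e-08 in the fit of all arrays). By this test, 2 of the 8 genes had effects that differed between cell types, Dntt in the positive and Ptcra in the negative direction, beside 12.6% of all genes (7.86% positive and 4.74% negative).

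The CD3 chains form the signalling core of the pre-TCR and of the mature receptor. Cd3g, Cd3d and Cd3e lie next to each other on chromosome 9. None of these 3 genes passed between leukaemia genotypes or between thymocyte genotypes. All 3 were far above background on all arrays.

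Cd3d (1422828_at), the delta chain, read 6707, 6742 and 5290 in wild-type and 8814, 6127 and 6905 in knockout leukaemias. It read 9198, 9354 and 6980 in wild-type and 6835, 9553 and 7983 in knockout thymocytes. The ranges of neighbouring groups overlapped throughout. The log2 difference between leukaemia genotypes was 0.21 (95% interval −0.19 to 0.62, limma adjusted p = 0.482) and between thymocyte genotypes −0.07 (−0.47 to 0.33, limma adjusted p = 0.991). Wild-type leukaemias against wild-type thymocytes gave −0.44 with no overlap but without passing (limma adjusted p = 0.0749). With replicate numbers as a block the limma adjusted p was 0.00591, and without wild-type thymocyte array 3 the difference was −0.58 with 0.0223. In the knockout the difference between cell types was −0.16 (−0.58 to 0.26, limma adjusted p = 0.593).

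Cd3e (1422105_at), the epsilon chain, read 1910, 2273 and 2349 in wild-type and 2337, 2361 and 3048 in knockout leukaemias. It read 4068, 4489 and 4404 in wild-type and 4160, 3744 and 3433 in knockout thymocytes. All thymocyte arrays lay above all leukaemia arrays, and the genotypes overlapped within each cell type. The level was 1.98-fold lower in wild-type leukaemias than in wild-type thymocytes (log2 −0.99, SE 0.12, limma adjusted p = 0.0007). In the knockout it was 1.47-fold lower (log2 −0.55, SE 0.14, limma adjusted p = 0.024). That knockout call was lost without knockout leukaemia array 1 (limma adjusted p = 0.0772) or 2 (0.07), and without knockout thymocyte array 1 (0.081) or 2 (0.0776). Between genotypes the differences were 0.24 in leukaemia (−0.11 to 0.59, limma adjusted p = 0.35) and −0.20 in thymocytes (−0.45 to 0.06, limma adjusted p = 0.982).

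Cd3g (1419178_at), the gamma chain, read 3796, 3917 and 2476 in wild-type and 3315, 2071 and 2016 in knockout leukaemias. It read 5894, 5724 and 3280 in wild-type and 3507, 5757 and 5721 in knockout thymocytes. Each group had arrays far apart, and neighbouring groups overlapped. The genotype difference was −0.47 in leukaemia (−1.07 to 0.14, limma adjusted p = 0.293) and 0.02 in thymocytes (−0.65 to 0.69, limma adjusted p = 0.998). In wild-type leukaemias against wild-type thymocytes it was −0.53 (−1.18 to 0.12, limma adjusted p = 0.202). That value was 0.0038 with replicate numbers as a block, and without wild-type thymocyte array 3 the difference was −0.80 with 0.0289. Knockout leukaemias were 2.02-fold lower than knockout thymocytes (log2 −1.02, SE 0.26, limma adjusted p = 0.0248). This call was lost without knockout leukaemia array 2 (limma adjusted p = 0.0702) or 3 (0.0608), and without knockout thymocyte array 2 (0.0961) or 3 (0.0867).

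Low Cd3g readings went with a high Gapdh ratio. Within wild-type leukaemias the lowest Cd3g array was the one at a ratio of 2.48, beside 0.969 and 1.02. In wild-type thymocytes it was the one at 3.68, beside 1.08 and 1.14. In knockout thymocytes it was the one at 3.33, beside 2.10 and 1.12. In knockout leukaemias the highest Cd3g array had the lowest ratio, 0.964, beside 2.00 and 2.98. The part of RNA integrity in the Cd3g differences was tested only by adding the ratio as a covariate, under which wild-type leukaemias lay below wild-type thymocytes by −0.67 (limma adjusted p = 0.000641).

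Cd247, the zeta chain, was lower in both kinds of leukaemia than in thymocytes of the same genotype. Its representative probe set (1426396_at) read 878, 792 and 569 in wild-type and 1156, 1202 and 742 in knockout leukaemias. It read 3786, 3720 and 2234 in wild-type and 2681, 2717 and 3722 in knockout thymocytes. All thymocyte arrays were above all leukaemia arrays, and the genotypes overlapped within each cell type. The level was 4.23-fold lower in wild-type leukaemias than in wild-type thymocytes (log2 −2.08, SE 0.25, limma adjusted p = 0.000796) and 2.94-fold lower in the knockout pair (log2 −1.56, SE 0.22, limma adjusted p = 0.00176).

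Between leukaemia genotypes the Cd247 difference was 0.45 (95% interval −0.11 to 1.01, limma adjusted p = 0.271). With replicate numbers as a block it had a limma adjusted p of 0.0244, and with the Gapdh ratio as a covariate the difference was 0.60 with 0.0428. Between thymocyte genotypes it was −0.07 (−0.62 to 0.48, limma adjusted p = 0.992). The difference of the genotype effects was 0.52 (limma adjusted p = 0.449) and passed in 1 of 26 alternatives, with the Gapdh ratio as a covariate (0.58, limma adjusted p = 0.0445). The 3 other Cd247 probe sets gave leukaemia genotype differences of −0.31, 0.10 and 0.11 in the fit of all probe sets, with limma adjusted p of 0.865, 0.775 and 0.683. The 4 probe sets therefore did not share a sign.

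Probe set 1452539_a_at of Cd247 varied most within groups. It read 546, 399 and 93.5 in wild-type leukaemias, 667, 151 and 100 in knockout leukaemias, 1721, 1379 and 284 in wild-type thymocytes and 322, 431 and 1598 in knockout thymocytes. The low arrays in each group were those without poly-A signal, except knockout thymocyte array 3, which read 1598 without signal and had a Gapdh ratio of 1.12. By this probe set neither cell type comparison passed (log2 −1.61 with limma adjusted p = 0.211 and −1.40 with 0.261), whereas 1420716_at gave −0.85 (0.0269) and −1.01 (0.0048) and 1426079_at gave −1.25 (0.0483) and −1.60 (0.000891). The latter read 22.6 to 35.4 in the leukaemias, at or near background, and 41.2 to 169 in thymocytes. Over all probe sets, 29.7% passed in the wild-type and 27.3% in the knockout comparison of cell types. The part of RNA integrity in the spread of this probe set was not tested.

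**Figure D2:**
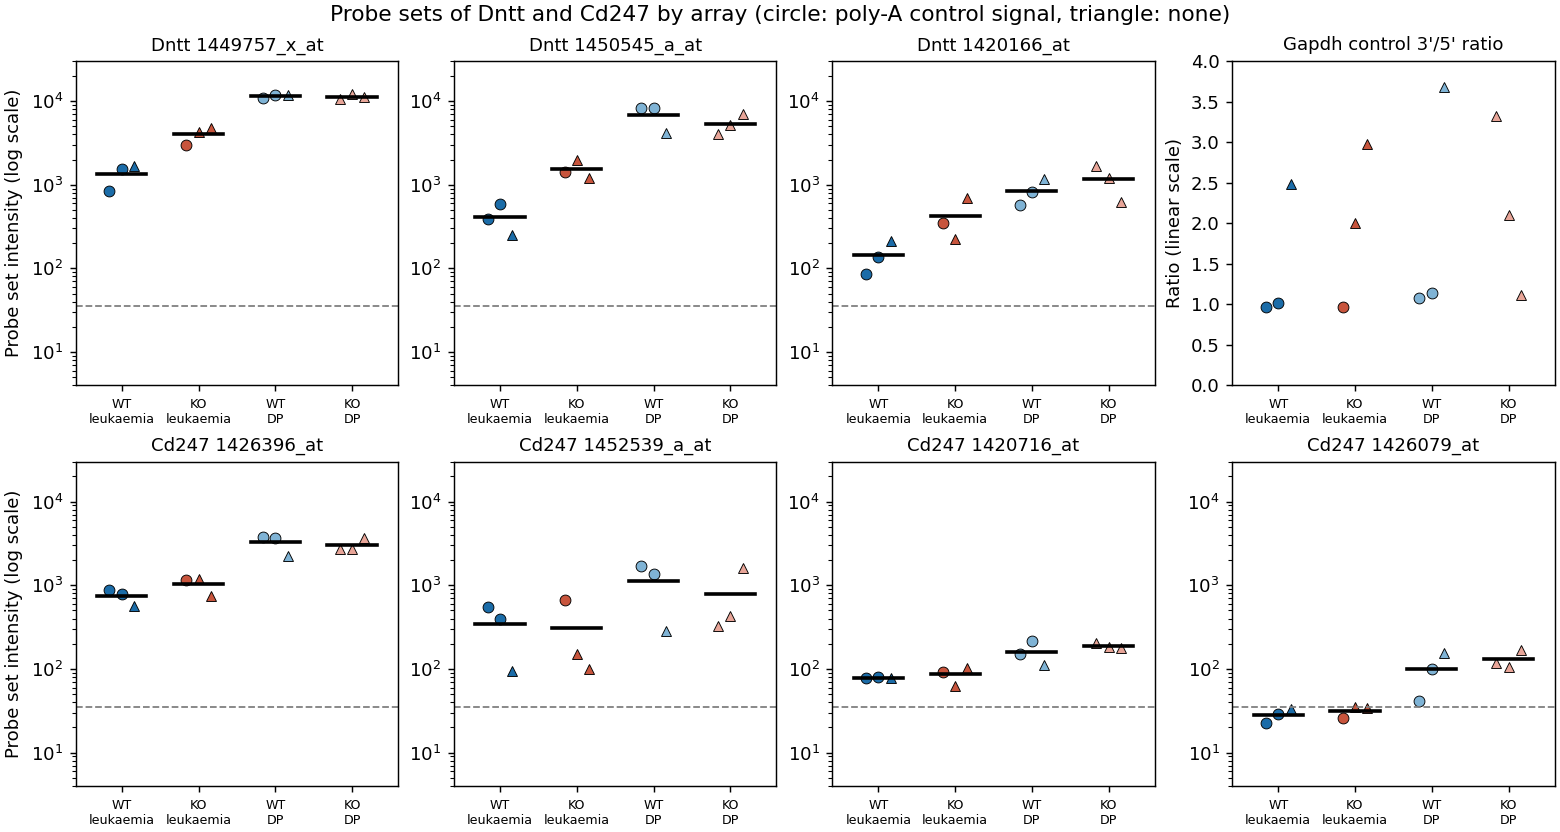
Intensity (linear values on a log10 axis) of the Cd247 and Dntt probe sets on the 12 arrays by group, with the Gapdh 3' to 5' ratio on a linear axis in the upper right panel; circles are the 5 arrays with poly-A signal and triangles the 7 without, bars are group means and the dashed line is the background of 35.3. Cd247 probe set 1452539_a_at spreads from 93.5 to 546 within wild-type leukaemias, and all Dntt probe sets are lower in wild-type than in knockout leukaemias.

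Rag1 and Rag2, which are neighbours on chromosome 2, were abundant in thymocytes and at or near background in every leukaemia. Rag1 (1450680_at) read 12423, 11991 and 8889 in wild-type and 9207, 12588 and 11545 in knockout thymocytes. It read 33.8, 42.3 and 42.1 in wild-type leukaemias and 21.7, 23.9 and 9.78 in knockout leukaemias. Thus 2 of 3 wild-type leukaemias lay just above the background of 35.3 and 0 of 3 knockout leukaemias did.

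Rag1 was at least 276-fold lower in wild-type leukaemias than in wild-type thymocytes (log2 −7.64, SE 0.15, limma adjusted p = 2.06e-06). In the knockout pair it was at least 313-fold lower (log2 −8.35, SE 0.20, limma adjusted p = 1.18e-06). Between thymocyte genotypes the difference was 0.01 (95% interval −0.41 to 0.42, limma adjusted p = 0.998). Between leukaemia genotypes Rag1 passed narrowly (log2 −0.71, SE 0.18, limma adjusted p = 0.043), on intensities that allow only a ratio of at least 1.11-fold. In the fit of all probe sets the limma adjusted p was 0.0536. The call was also lost without wild-type leukaemia array 1 (0.0812), 2 (0.154) or 3 (0.101) and without knockout leukaemia array 1 (0.0649), and in 11 of 22 alternatives in all. The difference of the genotype effects between cell types did not pass for Rag1 (−0.71, SE 0.27, limma adjusted p = 0.124), except in 1 of 26 alternatives, with array weights (−0.73, limma adjusted p = 0.0398).

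Rag2 (1418065_at) read 604, 423 and 621 in wild-type and 223, 399 and 579 in knockout thymocytes. In the leukaemias it read 8.34, 11.6 and 10.4 with MBD2 and 9.57, 12.4 and 11.6 without it, below background on all arrays. It was at least 15.3-fold lower in wild-type leukaemias than in wild-type thymocytes (log2 −4.42, SE 0.16, limma adjusted p = 1.03e-05), and at least 10.5-fold lower in the knockout pair (log2 −3.84, SE 0.30, limma adjusted p = 0.000124). No fold is given between the leukaemia genotypes, since both were below background. The thymocyte genotypes overlapped (log2 −0.52, 95% interval −1.29 to 0.25, limma adjusted p = 0.982).

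Dntt was lower in leukaemias than in thymocytes, and less so without MBD2. Its representative probe set (1449757_x_at) read 830, 1537 and 1682 in wild-type leukaemias and 2987, 4291 and 4733 in knockout leukaemias. It read 10883, 11877 and 11912 in wild-type and 10671, 12011 and 11227 in knockout thymocytes. The leukaemia groups did not overlap with each other or with the thymocytes, while the thymocyte genotypes overlapped.

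Dntt rose 3.02-fold between wild-type and knockout leukaemias (log2 1.59, 95% interval 0.88 to 2.30, SE 0.30, limma adjusted p = 0.0129). The difference was 1.39 on arrays with poly-A signal and 1.41 on those without, and neither split has replicates in both genotypes. Wild-type leukaemias were 8.85-fold below wild-type thymocytes (log2 −3.15, SE 0.26, limma adjusted p = 0.000153). Knockout leukaemias were 2.87-fold below knockout thymocytes (log2 −1.52, SE 0.18, limma adjusted p = 0.000771). Between thymocyte genotypes the difference was −0.03 (−0.27 to 0.20, limma adjusted p = 0.992). The genotype effects differed between the cell types by 1.63 (SE 0.34, limma adjusted p = 0.00768).

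The suffix x marks a probe set with probes that can also bind other transcripts, so the other Dntt probe sets bear on this result. Probe set 1450545_a_at read 385, 595 and 249 in wild-type and 1424, 1994 and 1203 in knockout leukaemias, again without overlap. In the fit of all probe sets, where 12.9% passed in this comparison, its difference was 1.92 (SE 0.33, limma adjusted p = 0.0114). Probe set 1420166_at read 86.0, 135 and 213 in wild-type and 348, 222 and 685 in knockout leukaemias. Its groups were apart, but its difference of 1.37 did not pass (SE 0.45, limma adjusted p = 0.102). All 3 probe sets thus had every knockout leukaemia above every wild-type leukaemia. In wild-type leukaemias against wild-type thymocytes, 1450545_a_at gave −4.02 (limma adjusted p = 0.00051) and 1420166_at gave −2.45 (0.00282). In the knockout pair they gave −1.79 (0.0021) and −1.47, the latter without passing (0.0604). The difference of the genotype effects was 2.23 by 1450545_a_at (limma adjusted p = 0.0157) and 0.98 by 1420166_at (0.468), in a fit where 9.63% of all probe sets passed.

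Rag and Dntt genes are also used by B-cell precursors, so B-lineage genes were read on the same arrays. Of 10 measured, 6 (Cd79a, Ms4a1, Pax5, Ebf1, Vpreb3 and Igll1) were not above background on any array. Among the other 4, 2 were higher in knockout than wild-type leukaemias, the direction of Dntt. Cd22 went from 87.2 ± 20.4 to 188 ± 15.4 (mean ± SD, n = 3, limma adjusted p = 0.00643). Cd79b, which is also the 1 of 5 listed adaptor chains or partners other than CD3 that passed there, went from 24.4 ± 5.88, below background, to 47.0 ± 6.19, at least 1.32-fold (limma adjusted p = 0.0248). The Cd79b call was lost without wild-type leukaemia array 2 (limma adjusted p = 0.076) or 3 (0.0511) and without knockout leukaemia array 1 (0.0717) or 3 (0.0632). Summed intensity over the 10 was 295 to 326 in wild-type leukaemias, 425 to 524 in knockout leukaemias and 449 to 508 in thymocytes. Summed over 5 natural killer (NK) cell genes, which bear on Cd247 since NK cells express it, intensity was 105 to 123 in wild-type leukaemias, 273 to 434 in knockout leukaemias and 101 to 139 in thymocytes. Of these, Ncr1 and Klre1 were not above background on any array, and Klrd1 was the 1 gene that rose in knockout leukaemias, at least 7.30-fold from a wild-type level below background. Summed myeloid markers (8 genes) were 891 to 1746 in wild-type and 261 to 724 in knockout leukaemias, beside 219 to 559 in thymocytes. The 4 erythroid markers summed to 226 to 252, 185 to 226 and 89.6 to 115 in the same order. S100a8 (538 ± 226) and S100a9 (461 ± 225) were the highest myeloid markers in wild-type leukaemias (mean ± SD, n = 3). Between leukaemia genotypes Lyz2 and Mpo passed as lower, with Mpo not above background on any array. Epor and Alas2 also passed as lower, while Klf1 went the other way without passing (56.5 ± 14.3 to 99.4 ± 19.6). Thymic stroma markers did not pass in any comparison for any of 6 genes, and Foxn1, Psmb11 and Krt8 were not above background on any array. The part of the B-lineage, myeloid, erythroid and NK differences in the values of the 8 genes was not tested.

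**Figure D3:**
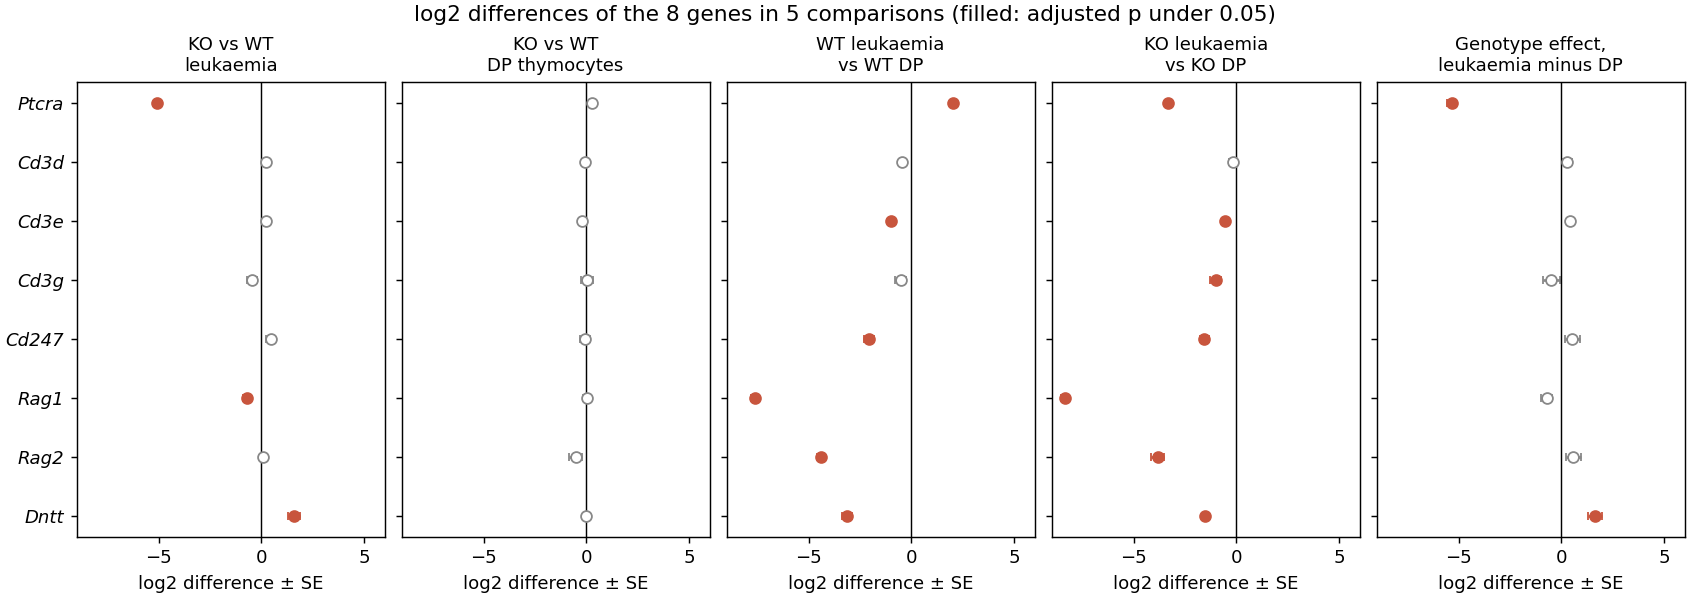
Log2 difference (limma, log2(intensity + 16) scale) of each of the 8 genes in the 4 comparisons of groups and for the genotype effect in leukaemia minus that in thymocytes; points are estimates, bars their SE, and filled points have an adjusted p under 0.05. Ptcra and Dntt have the largest genotype differences in leukaemia, −5.08 and 1.59, and 0 of the 8 points are filled between thymocyte genotypes.

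Genes that work with the 8 were then counted from lists of known function. The lists were chosen with earlier results of these data known, so their counts are descriptions. Of 31 genes of proximal pre-TCR and TCR signalling, 9 were higher and 0 lower in leukaemias without MBD2, with a median log2 difference of 0.38. Over all genes 9.19% were higher and 6.98% lower, with a median of −0.06. With replicate numbers as a block 14 of the 31 were higher and 2 lower, and without wild-type or knockout leukaemia array 3 the count of lower genes was 1. No share of all genes is given for these alternatives. Syk, the kinase that binds phosphorylated ITAMs in early thymocytes, went from 23.3 ± 3.64 to 132 ± 4.32 (mean ± SD, n = 3, limma adjusted p = 6.43e-05), at least 3.75-fold from a wild-type level below background. Trat1, an adaptor attached to the receptor, rose by log2 2.06, the phosphatase gene Ptpn22 by 1.31 and Tespa1, which is needed for thymocyte TCR signalling, by 1.27. In thymocytes 0 of the 31 passed between genotypes by limma.

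In wild-type leukaemias against wild-type thymocytes, 22 of the 31 signalling genes were lower and 0 higher (median −0.93), beside 14.2% lower and 19.7% higher over all genes (median 0.06). The 22 included the kinase genes Syk (at least 5.73-fold lower) and Fyn (log2 −1.49), the ubiquitin ligase gene Cbl (−1.25) and the adaptor gene Fyb (−1.27). In the knockout pair 14 were lower, among them Themis (−2.06), Cbl (−1.23) and Cd6 (−1.13), and 6 were higher (3 without knockout thymocyte array 1), beside 11% lower and 18.5% higher over all genes. The difference of the genotype effects passed for 9 of the 31, all positive, beside 7.86% positive over all genes.

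Breaks made by RAG are joined by classical end joining. Of 17 such genes, 0 were higher and 2 lower in leukaemias without MBD2, Xrcc6 and Polm, with a median of −0.10. That is near the background, since 16.2% of all genes passed in either direction with a median of −0.06. Xrcc6, which encodes the Ku70 subunit that binds DNA ends, fell from 2662 ± 406 to 850 ± 190 (mean ± SD, n = 3, log2 −1.64, limma adjusted p = 0.00163). Polm, a polymerase gene related to Dntt, fell from 160 ± 19.3 to 92.1 ± 7.66 (log2 −0.70, limma adjusted p = 0.00902). Against thymocytes, 5 were higher and 1 lower in wild-type leukaemias (9 and 2 with replicate numbers as a block), beside 19.7% higher and 14.2% lower over all genes. Those shares are from the fit without a block, and none is given with it. The count of lower genes was 0 without wild-type leukaemia array 2 or 3 or wild-type thymocyte array 1 or 2. The higher ones included Xrcc5, the partner of Xrcc6 (log2 1.97), Poll (at least 2.17-fold, its thymocyte level being below background), Nbn (log2 1.42) and Mre11a (1.40). In the knockout pair 6 were higher and 4 lower, among the latter Xrcc6 (−1.56), beside 18.5% and 11% over all genes. The 4 became 2 without knockout thymocyte array 2.

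The next list held 24 genes, mostly for factors known to bind control regions of Rag, Ptcra or CD3 genes. It too was chosen with earlier results of these data known. It includes Notch1, Id2 and Id3, whose products act on or through such factors and do not bind DNA themselves. Of the 24, 9 were higher and 2 lower in leukaemias without MBD2, with a median of 0.55. Over all genes 9.19% were higher and 6.98% lower. With replicate numbers as a block 14 were higher, for which no share of all genes is given. Notch1, whose signal acts on Ptcra, rose from 1457 ± 140 to 5664 ± 1279 (mean ± SD, n = 3, log2 1.92, limma adjusted p = 0.000744), in the same samples in which Ptcra fell. Which form of Notch1 this probe set detects was not tested. Erg rose from 28.2 ± 5.40 to 826 ± 213, Bach2 from 29.3 ± 3.05 to 532 ± 211 and the E protein gene Tcf4 from 25.9 ± 7.10 to 325 ± 82.0. Their wild-type leukaemia levels are below background, so these rises are at least 22.9-fold, 14.4-fold and 9.02-fold. In thymocytes 0 of the 24 passed between genotypes by limma. In wild-type leukaemias against wild-type thymocytes 9 were lower and 1 higher, beside 14.2% and 19.7% over all genes, and 2 were higher without wild-type leukaemia array 3 or wild-type thymocyte array 1 or 3. Lower were, among others, Tcf4 (at least 8.93-fold), Bcl11b (log2 −1.58) and Myb (−0.94), and Runx3 was higher (2.25). In the knockout pair 6 were higher and 4 lower, beside 18.5% and 11% over all genes. Erg was at least 20.5-fold higher there, Runx3 lay at 2.64, Satb1 at −2.49 and Id3 at −2.30.

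The antigen-binding chains themselves are little covered by single-gene probe sets. Of the list of TCR chain genes, 2 were on the array, and between leukaemia genotypes both passed. Trbv13-2 went from 14.5 ± 1.59, below background, to 739 ± 32.6 in the knockout, at least 20.95-fold higher. Tcra went from 93.7 ± 2.16 to 19.4 ± 0.170, below background, at least 2.66-fold lower. For both genes the SD within each leukaemia group was small beside the difference between the groups. Segments at the Tcrb and Tcra loci are cut and joined in each T cell. The signal of these genes can therefore also differ with the leukaemia clone, apart from genotype. Whether the arrays of a group share a clone was not tested, and the leukaemia p-values take them as independent.

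**Figure D4:**
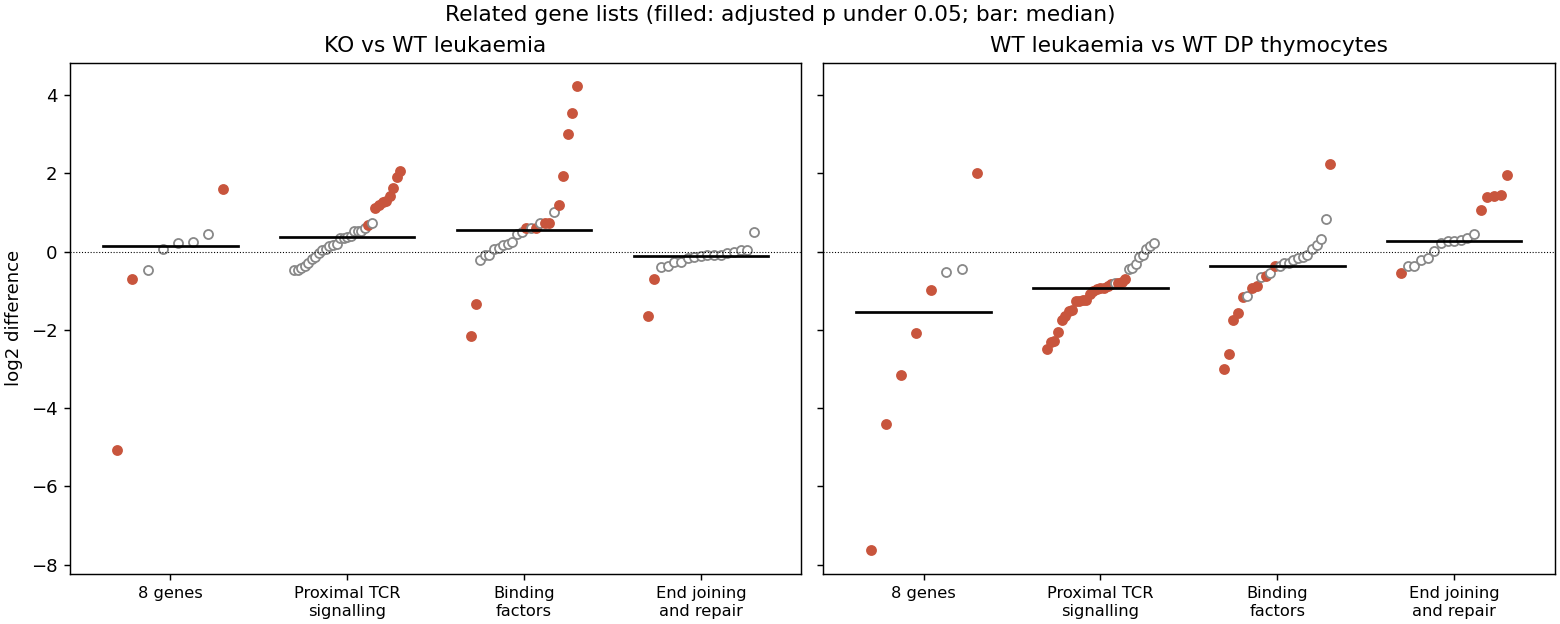
Log2 differences of the 8 genes and of the lists of proximal signalling, binding factor and end joining genes. Panels show knockout against wild-type leukaemias and wild-type leukaemias against wild-type thymocytes. The binding factor list includes Notch1, Id2 and Id3, which act on or through such factors. Each point is a gene, filled where its adjusted p is under 0.05, and each bar is the median of its list. The signalling list has its median at 0.38 in the first panel and −0.93 in the second.

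The 8 genes did not follow 1 pattern over the arrays. Over the 12 arrays, which fall into 4 groups, log2 intensities of Rag1 and Rag2 correlated at 0.98 and those of Dntt and Cd3e at 0.94, while Ptcra correlated with the other 7 at −0.27 to 0.46. These are descriptions, since arrays of a group share their condition. Likeness was searched over the other genes tested, leaving out clone-type names such as Riken ones. The patterns most like that of Ptcra were those of Slc36a4 and Arsi, both with r of 0.99. Slc36a4 read 389 ± 77.5 in wild-type leukaemias, 11.7 ± 0.355 in knockout leukaemias, 119 ± 19.2 in wild-type thymocytes and 109 ± 20.1 in knockout thymocytes (mean ± SD, n = 3). Arsi was likewise highest in wild-type and lowest in knockout leukaemias, at 1498 ± 300.1, 104 ± 15.9, 483 ± 61.6 and 554 ± 183. Rab11fip4 and Kcnh2 were most like Rag1 (r of 0.997 and 0.996), Wdr47 and Ets2 most like Rag2 (0.992 and 0.991), and Zbtb18 and Tgfbr1 most like Dntt (0.985 for both). For the CD3 chains the likest were Celf2 and Fnip1 for Cd3e (0.98 and 0.97), Tspo and Coro1a for Cd3g (0.97 for both), Tmem179b and Sat1 for Cd3d (0.95 and 0.93), and Mtmr3 and Sla for Cd247 (0.99 for both). Sla encodes an adaptor that lowers TCR levels and is also in the signalling list.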

How the data were processed

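Gene expression was measured on Affymetrix mouse arrays from 7 µg of total RNA per sample, per the labels. The authors deposited 1 linear intensity for each probe set. The sources used here do not state how they summarized or normalized them. Medians of the arrays differed by at most 0.0752 on the log2 scale, and no normalization was added. Log2 values were computed here from the deposited intensities as log2(value + 16), so differences of dim genes are understated.

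The brightest single-gene probe set, by its mean, stood for each gene. Genes were tested if 3 or more arrays had them above that array's 25th percentile. Tests used limma 3.58.1 (R 4.3.3, functions lmFit and eBayes, Benjamini-Hochberg over 15420 genes, threshold 0.05), each pair of groups in its own fit and the difference of genotype effects in a fit of all 12 arrays. Fits of all probe sets gave the values for single probe sets. A ratio of "at least" divides the geometric mean of the brighter group by that of the dimmer, with each dim array below 35.3 raised to 35.3, so it does not follow from the arithmetic means printed beside it. Intervals are limma's and the number of arrays limits precision. On simulated data with known changes, 65% of changes of log2 1 and 96% of log2 2 were recovered between leukaemia genotypes. The simulated noise was independent between arrays, unlike the linked deviations described below, so these rates may not hold for the real arrays. Plots used matplotlib 3.10.9 in Python 3.11.15.

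The genes, the lists and the tests were chosen with earlier results of these data known. Named are Mbd2, the 8 genes, up to 4 passing genes per list and comparison with the smallest adjusted p, the 2 genes most like each of the 8, and Notch1, Cd4, Cd8a and Gapdh. All DP markers and the B-lineage, NK and thymic stroma markers not above background on any array were also named, outside this rule and after their values were seen. Alternatives were other normalizations, filters, constants, probe set rules, eBayes settings, array weights, blocks, the Gapdh ratio as a covariate, arrays split by poly-A signal and leaving out each array; counts for the lists under these were added after the data were seen.

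As a check of pairing by replicate number, deviations from group means were correlated across genes. Equal numbers gave r of 0.40, 0.24 and 0.55 between leukaemia genotypes and, for the wild-type cell types, 0.45, 0.44 and 0.58. No label states a shared origin, so the block by number was run only as an alternative. In both wild-type groups numbers 1 and 2 have poly-A signal and 3 has none, and between leukaemia genotypes numbers 1 and 3 have the same poly-A state, so number and poly-A state cannot be fully told apart. In the other pairs of groups the numbers did not pair. The SEs, intervals, adjusted p-values and counts come from fits without a block unless a block is named.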

Additional observations from a re-analysis of the deposited data

Results flagged for a closer look

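The genotype effects on Ptcra and Dntt differed between cell types by the test of that difference in the fit of all 12 arrays. For Ptcra the effect in leukaemia minus that in thymocytes was −5.35 (SE 0.20, limma adjusted p = 2.98e-08), and over 26 alternatives the adjusted p reached at most 0.000619. For Dntt it was 1.63 (SE 0.34, limma adjusted p = 0.00768), with adjusted p from 0.00082 to 0.0231 over 26 alternatives. Groups of 3 arrays were not searched for outlying arrays.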

How the results depend on the processing

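Of the 5 counts of the 8 genes that passed, 1 moved by more than 1.5 times: between leukaemia genotypes it was 0 on the arrays without poly-A signal, where 0 of all genes tested passed with 1 wild-type array assumed to vary like the 2 knockout arrays. Leaving out each array gave 2 to 3 genes there, 0 in thymocytes, 6 to 8 in wild-type leukaemias against thymocytes, 5 to 7 in the knockout pair and 2 for the difference of effects. Signs turned only where log2 differences in the fits reported above were near 0, though some alternatives lay further away, such as 0.42 for Cd247 between thymocyte genotypes. For Rag2 in leukaemia the turned values were −0.013 when centred on the 75th percentile and −0.019 on arrays with poly-A signal. Between thymocyte genotypes Cd3d turned to 0.21 and Cd247 to 0.42 with a poly-A block or on arrays without signal; Cd247 also to 0.033 with the mean of probe sets and 0.029 with the Gapdh covariate. Cd3g turned to −0.0087 and Rag1 to −0.075 under quantile normalization, Cd3g to −0.024 and Dntt to 0.042 with array weights, and Dntt to 0.029 when centred on the 75th percentile and 0.014 with the mean of probe sets. Leaving out each array between thymocyte genotypes gave −0.20 to 0.050 for Cd3d, −0.25 to 0.26 for Cd3g, −0.32 to 0.059 for Cd247, −0.15 to 0.13 for Rag1 and −0.077 to 0.0081 for Dntt. The causes were not tested. Numbers do not pair the knockout leukaemias with the knockout thymocytes; with them as a replicate block, Cd3e had a limma adjusted p of 0.0828, Cd3g 0.0891 and the count was 5. The block changed no other call of the 8 genes beside those given with Cd3d, Cd3g and Cd247. Not run were arrays with poly-A signal for comparisons that need knockout thymocytes, of which 0 have signal, and arrays without it for wild-type leukaemias against thymocytes, with 1 array each and no residual degrees of freedom. Signal near background limits Rag1, Rag2, knockout Ptcra and the genes given with a ratio of at least a stated size.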
